A study of Mus musculus with 6 samples.

Results

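The Cyp4 enzymes are cytochromes P450 that add a hydroxyl group to the far (omega) end of fatty acids. Liver mRNA of 9 of them, Cyp4a10, Cyp4a14, Cyp4a31, Cyp4a12a, Cyp4a12b, Cyp4f13, Cyp4f14, Cyp4f15 and Cyp4v3, was examined among the 23284 genes of the count tables. The genes were chosen by name as the Cyp4a, Cyp4f and Cyp4v enzymes of liver. The study asked how loss of a tyrosine phosphorylation site, Y67, in the bile acid (BA) receptor FXR alters hepatic gene expression. All 6 livers were from male FXR-floxed mice, 8 weeks old when injected into the tail vein with AAV8-TBG-Cre, which deletes the floxed gene, together with a second AAV8-TBG virus. In the 3 FXR-WT mice the second virus carried wild-type FXR, and in the 3 Y67F-FXR mice it carried FXR with phenylalanine in place of Y67. Both groups also shared a bile acid challenge before the livers were taken: 4 weeks after the viruses, the diet contained 0.5% cholic acid (CA), an FXR-activating bile acid, during 6 h. The TBG promoter is active in hepatocytes, so FXR of other liver cells and of the intestine was not targeted, and neither a liver without viral FXR nor one without CA was analysed here.

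Omega-hydroxylation opens a side route of fatty acid breakdown. The omega-hydroxy fatty acid is oxidized to a dicarboxylic acid, activated to a CoA ester and shortened in peroxisomes. Cyp4a10 and Cyp4a14 are classical targets of PPARα, the fatty acid-sensing nuclear receptor of hepatocytes. Cyp4a12a and Cyp4a12b are enriched in male mice, and Cyp4a12a also makes the vasoactive arachidonic acid product 20-HETE in kidney. Enzymes of the Cyp4f branch act on longer fatty acids and on leukotrienes, Cyp4f14 among them on the inflammatory mediator leukotriene B4. Cyp4v3 is the mouse counterpart of human CYP4V2, a fatty acid hydroxylase mutated in Bietti crystalline dystrophy.

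The reads came from genes that are closely alike in sequence. The stretch around the cysteine that holds the haem iron, the part common to all P450 enzymes, is shown to let the members be compared. Each sequence has 30 coding bases, read 5′ to 3′ from the GENCODE M21 transcripts of GRCm38 and crossing 1 exon boundary, and capitals mark the codon of the cysteine.
Cyp4a10: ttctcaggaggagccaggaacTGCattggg
Cyp4a31: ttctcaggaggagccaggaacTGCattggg
Cyp4a12a: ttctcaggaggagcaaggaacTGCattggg
Cyp4a12b: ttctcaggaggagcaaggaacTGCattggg
Cyp4a14: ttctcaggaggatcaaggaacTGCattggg
Cyp4f13: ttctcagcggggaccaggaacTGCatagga
Cyp4f14: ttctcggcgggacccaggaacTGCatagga
Cyp4f15: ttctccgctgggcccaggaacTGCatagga
Cyp4v3: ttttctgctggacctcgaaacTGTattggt

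Over the intron that the stretch crosses, the Cyp4a sequences lie in GRCm38 at chr4:115529502-115532543 (Cyp4a10), chr4:115574950-115577948 (Cyp4a31), chr4:115328986-115331846 (Cyp4a12a) and chr4:115435240-115438069 (Cyp4a12b) on the plus strand, and at chr4:115487299-115489805 (Cyp4a14) on the minus strand. The others lie at chr17:32924942-32925340 (Cyp4f13, minus strand), chr17:32905666-32906065 (Cyp4f14, minus strand), chr17:32702398-32702801 (Cyp4f15, plus strand) and chr8:45307107-45308407 (Cyp4v3, minus strand). Cyp4a10 and Cyp4a31 had the same letters, as did Cyp4a12a and Cyp4a12b. Cyp4f14 and Cyp4f15 differed at 3 of 30 bases, and Cyp4v3 differed from Cyp4a10 at 10 of 30. Over the whole coding sequence, Cyp4a12a and Cyp4a12b were identical at 98.49% of aligned bases, Cyp4a10 and Cyp4a31 at 96.6%, and Cyp4f14 and Cyp4f15 at 80.01%.

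A read that fits several genes equally well was left out of the counts, so near-identical members lose reads. Of the 100-base windows of their transcripts, 35.82% of those of Cyp4a12a and 36.24% of those of Cyp4a12b also occur in the other gene. The share was 12.16% for Cyp4a10 and 7.333% for Cyp4a31, which overlap with each other and with Cyp4a32. For Cyp4v3 it was 5.77%, shared with the gene model Gm45753. Cyp4a14, Cyp4f13, Cyp4f14 and Cyp4f15 shared no such window with another gene. The rows of Cyp4a10, Cyp4a31, Cyp4a12a and Cyp4a12b are therefore uncertain as levels of single genes, and no member shared exon bases with a gene at its own locus.

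In the mm9 annotation of the count tables the 5 Cyp4a members lie within 280 kb on chromosome 4 (chr4:114971651-115251620). The 3 Cyp4f members lie within 262 kb on chromosome 17. Cyp4f15 (chr17:32822604-32840294, plus strand, 13 exons) is separated by 202 kb from Cyp4f14 (chr17:33042015-33054287, minus strand, 13 exons), and Cyp4f14 by 7.34 kb from Cyp4f13 (chr17:33061633-33084306, minus strand, 13 exons). Cyp4v3 (chr8:46391156-46418550, minus strand, 11 exons) lies alone. Promoters of 4 of the 9 members, Cyp4f13, Cyp4f14, Cyp4f15 and Cyp4v3, matched the RefSeq table of GRCm38.p6. The last 120 bases before the annotated start of the Cyp4f genes (the first of 4 starts for Cyp4f14) are shown because Cyp4f15 and Cyp4f14 had fitted changes of opposite sign. Capitals mark the CCAAT box, which is read on the opposite strand as ATTGG.
Cyp4f15: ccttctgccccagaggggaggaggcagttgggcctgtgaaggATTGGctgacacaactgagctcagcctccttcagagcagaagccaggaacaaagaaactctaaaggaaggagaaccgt
Cyp4f14: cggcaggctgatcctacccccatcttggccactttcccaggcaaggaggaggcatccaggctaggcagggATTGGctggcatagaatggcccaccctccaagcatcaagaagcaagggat
Cyp4f13: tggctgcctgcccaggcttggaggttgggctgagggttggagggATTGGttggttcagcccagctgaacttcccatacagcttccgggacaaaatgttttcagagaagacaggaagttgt

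These stretches lie at chr17:32685539-32685658 (Cyp4f15, plus strand), chr17:32917357-32917476 (Cyp4f14, minus strand) and chr17:32947362-32947481 (Cyp4f13, minus strand). The box began 78, 50 and 76 bases before the start in Cyp4f15, Cyp4f14 and Cyp4f13. CCAAT on either strand occurred in the 250 bases before 33.8% of 32851 annotated starts. The motifs TATAAA (12.4% of starts), AGGTCA (14%), a direct repeat of AGGTCA with 1 base between the copies (0.0335%) and the inverted repeat with the same spacing (0.00609%), also searched on both strands, were not found in these windows of the 4 members. Both repeats contain AGGTCA and so overlap with it.

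The 6 libraries held 19551113 to 22053320 counted reads. Nr1h4, the gene of FXR, had a mean ± SD (n = 3) of 186 ± 30.2 CPM in FXR-WT and 175 ± 9.84 CPM in Y67F-FXR livers. CPM are the reads of a gene scaled to a library of 1e6 reads. This count separates neither mutant from wild-type nor viral from native mRNA. The paper gives its flag-tagged FXR as human, and does not state the species of the AAV-borne FXR. Reads of a human FXR mRNA may be missing from this mouse row, so it does not show the level of viral FXR. None of the markers of hepatocytes, leukocytes, stellate cells, cholangiocytes, endothelial cells or erythrocytes was called changed by edgeR. An unadjusted p under 0.05 was found for 3 of 8 stellate, 2 of 9 leukocyte and 1 of 6 endothelial markers tested. Of all genes 13.4% were under this cut, and no marker of the other cell types was. Summed hepatocyte markers spanned 96188 to 111789 CPM in FXR-WT and 94318 to 118371 CPM in Y67F-FXR livers. Stellate markers were at 85.0 to 114 against 69.7 to 78.2 CPM, with 7 of 8 fitted lower, and Lrat, which stores vitamin A in these cells, at 16.6 ± 3.05 against 7.47 ± 1.47 CPM (edgeR quasi-likelihood adjusted p = 0.0540). Leukocyte markers summed to 132 to 195 against 107 to 253 CPM, with 5 fitted higher and 4 lower and a median of 0.034 on the log2 scale. Those lower included the neutrophil genes S100a8 (1.03 ± 0.211 against 0.151 ± 0.0982 CPM, adjusted p = 0.0529) and S100a9 (log2 fold change -1.95, adjusted p = 0.106), and those higher included Cd3e (0.53) and Cd5l (0.37). The sums were 46.2 to 71.2 against 54.1 to 60.6 CPM for cholangiocytes, 161 to 191 against 165 to 174 CPM for endothelial cells and 80.4 to 89.3 against 86.5 to 114 CPM for erythrocytes, in which Hba-a1 and Hbb-b1 were listed at 0. Of 5 kidney tubule markers, 4 had no read in any library. The part of these marker differences in the results was not tested. Read yield also varied with gene length: the shortest 20% of genes stood 0.20 log2 units above their mean in FXR-WT 1 and 0.22 above it in Y67F-FXR 2, and 0.18 and 0.20 below it in FXR-WT 3 and Y67F-FXR 1. In whole liver, fewer cells of a type and less mRNA per cell cannot be told apart.

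Levels of different genes were compared as TPM, in which reads are divided by the counted exon length before scaling each library to the same total. Cyp4a14 and Cyp4a10 accounted for 89.1 to 90.6% of the members' summed TPM. Cyp4a14 was at 3606 TPM in FXR-WT and 4433 TPM in Y67F-FXR livers on average and ranked between 22 and 36 among all genes. Cyp4a10 was at 2586 and 2978 TPM, ranked between 33 and 62, and did not overlap Cyp4a14 in either group. Cyp4v3 followed at 202 and 237 TPM and Cyp4a12a at 154 and 144 TPM, and the ranges of Cyp4v3 and Cyp4a12a overlapped in both groups. In FXR-WT livers Cyp4f14 (101 TPM), Cyp4f13 (94.3 TPM) and Cyp4f15 (93.9 TPM) had overlapping ranges, followed by Cyp4a12b (66.8 TPM) and Cyp4a31 (23.9 TPM), whose ranges were apart from each other and from the Cyp4f genes. In Y67F-FXR livers Cyp4f15 (150 TPM) lay within the range of Cyp4a12a, and the order below it was Cyp4f13 (93.5 TPM), Cyp4a12b (64.9 TPM), Cyp4f14 (57.5 TPM) and Cyp4a31 (25.0 TPM), with Cyp4a12b and Cyp4f14 overlapping.

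**Figure D1:**
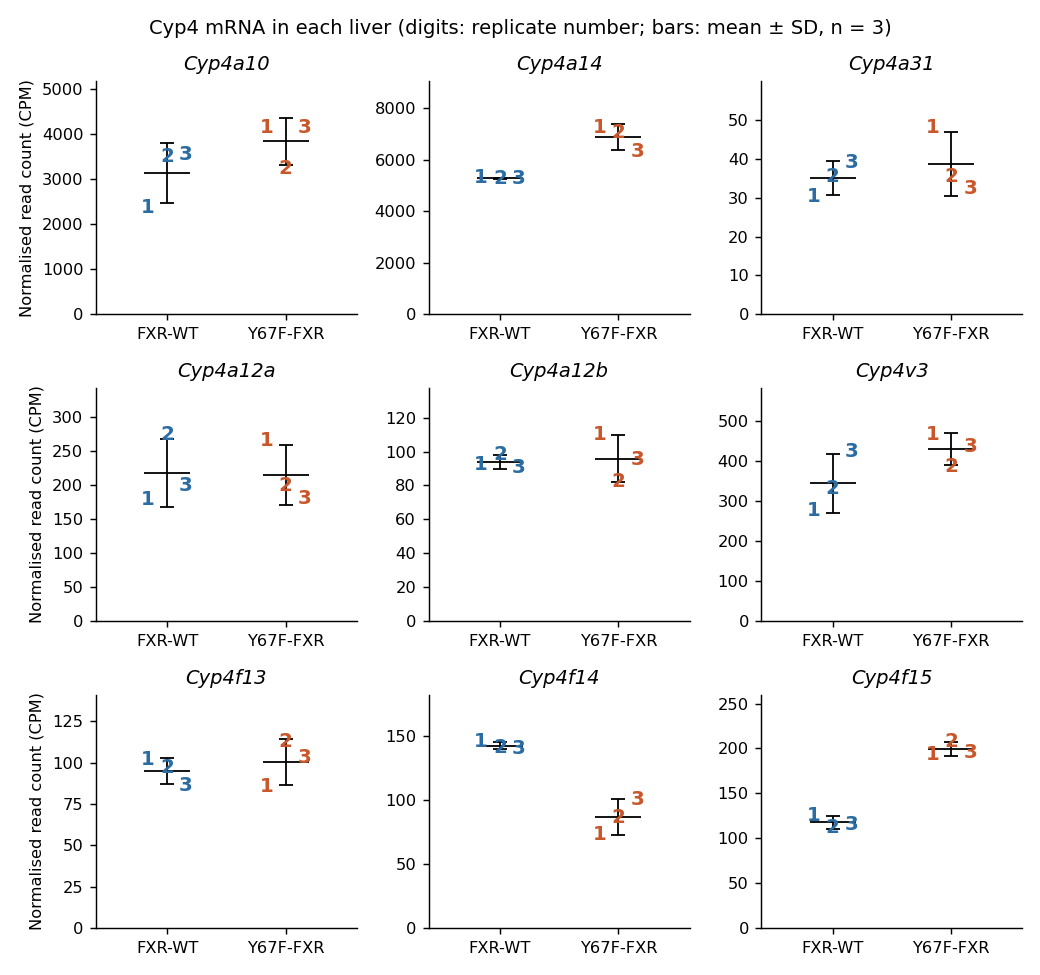
TMM-scaled CPM (vertical axis from 0, a scale of its own in each panel) of the 9 Cyp4 members in 3 FXR-WT and 3 Y67F-FXR livers; digits are replicate numbers and bars the mean ± SD. Groups are separate for Cyp4f15 and Cyp4a14, higher in Y67F-FXR, and for Cyp4f14, lower in Y67F-FXR.

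Cyp4f15 was the only member called changed, and it rose in Y67F-FXR livers. The groups were compared by the quasi-likelihood test of edgeR with p-values adjusted by Benjamini-Hochberg over 12453 genes. A call required a fold over 1.5 together with an adjusted p below 0.05. All 9 members passed the filter on low counts. The call was made for 1 of 9 members, against 0.972% of all genes. That member was higher, as were 0.546% of all genes, and 0 of 9 members were called lower, against 0.426%. At an unadjusted p under 0.05 there were 2 members fitted higher and 1 fitted lower, against 13.4% of all genes in either direction. The groups did not overlap for 3 of 9 members, against 20.6% of all genes: 2 members were higher (10.2% of all genes) and 1 was lower (10.5%). Of the members, 7 were fitted higher and 2 lower. The median of their log2 fold changes (Y67F-FXR against FXR-WT) was 0.14, beside 0.01 for all genes tested. With 1 liver left out at a time, 5 to 8 members were fitted higher and the median was 0.12 to 0.24.

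Cyp4f15 was at 126, 112 and 115 CPM in the FXR-WT livers and at 194, 208 and 196 CPM in the Y67F-FXR livers. Every Y67F-FXR liver was above every FXR-WT liver, and the livers within a group lay close together. The means were 118 ± 7.14 and 199 ± 7.70 CPM (SD, n = 3), a log2 fold change of 0.76 (SE 0.111, 95% interval 0.50 to 1.02). The fold was 1.69 (edgeR quasi-likelihood adjusted p = 0.0298), and Cyp4f15 ranked 56 by p-value among the genes tested. The call rested on all 6 livers. With any 1 left out the log2 fold change was 0.72 to 0.81, but the edgeR quasi-likelihood adjusted p was 0.0528 to 0.137. Over all genes, 9 to 55 of the 121 calls were kept in these fits, so a lost call was not particular to Cyp4f15.

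Cyp4f14, which inactivates leukotriene B4, was lower in every Y67F-FXR liver but did not pass the test. It was at 146, 141 and 141 CPM in FXR-WT and at 72.8, 86.4 and 101 CPM in Y67F-FXR livers. All 3 Y67F-FXR livers were below the FXR-WT livers, which were nearly equal. The means were 142 ± 2.98 and 86.6 ± 14.0 CPM (SD, n = 3), a log2 fold change of -0.72 (SE 0.141, 95% interval -1.04 to -0.39; edgeR quasi-likelihood adjusted p = 0.0718). It was called lower with DESeq2 (adjusted p = 0.000877), edgeR's likelihood ratio test (0.00286), scaling to library totals (0.0440) or gene length offsets (0.0302), and not with any liver left out (0.135 to 0.207).

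Cyp4f13, the nearest neighbour of Cyp4f14, was not called. Its values were 102, 96.9 and 86.1 CPM in FXR-WT and 85.4, 113 and 103 CPM in Y67F-FXR livers. The groups overlapped, with the lowest and the highest value both in Y67F-FXR livers. The log2 fold change was 0.08 (SE 0.141, 95% interval -0.24 to 0.41; edgeR quasi-likelihood adjusted p = 0.874).

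The makeup of the Cyp4f mRNA within a liver differed between groups. Cyp4f14 made up 33.9, 34.9 and 35.9% of the summed TPM of the 3 Cyp4f members in FXR-WT livers and 17.7, 18.0 and 21.6% in Y67F-FXR livers. Cyp4f15 made up 32.9, 31.3 and 33.2% in FXR-WT and 53.1, 48.9 and 47.3% in Y67F-FXR livers. The 3 genes had nearly equal shares in FXR-WT, and Cyp4f15 was the largest in each Y67F-FXR liver, while Cyp4f13 stayed at 29.2 to 33.8% over all 6. The ratio of Cyp4f15 to Cyp4f14 CPM was 0.862, 0.796 and 0.820 in FXR-WT and 2.66, 2.41 and 1.95 in Y67F-FXR livers. The mean log2 ratios differed by 1.49 (two-sided exact permutation p = 0.1, n = 3 per group), the smallest p that 3 against 3 livers allow, and this ratio was chosen after the values were seen.

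**Figure D2:**
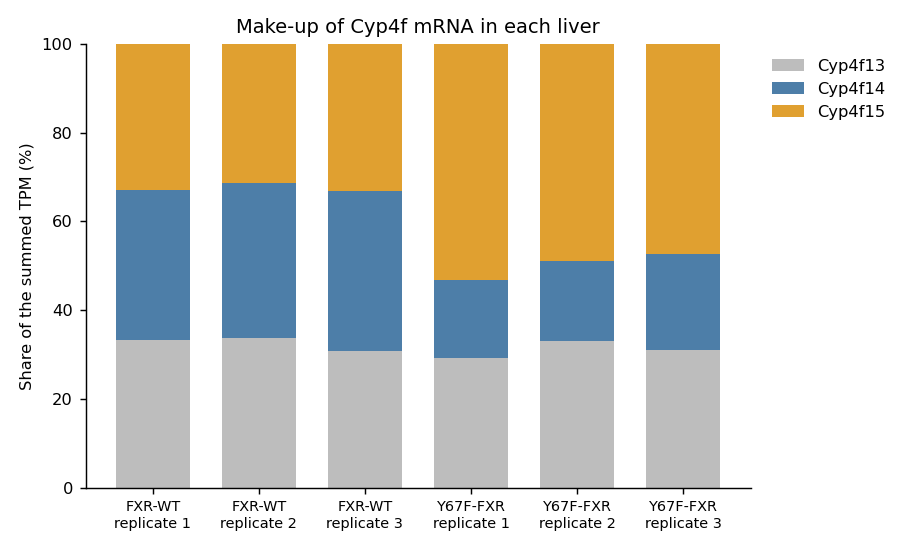
Share of the summed TPM of the 3 Cyp4f members (percent, vertical axis) taken by Cyp4f13, Cyp4f14 and Cyp4f15 in each liver. Cyp4f14 takes 33.9 to 35.9% in FXR-WT livers and 17.7 to 21.6% in Y67F-FXR livers, where Cyp4f15 takes 47.3 to 53.1%.

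The abundant PPARα-responsive members Cyp4a14 and Cyp4a10 had higher means in Y67F-FXR livers, but neither was called. Cyp4a14 was at 5301, 5265 and 5259 CPM in FXR-WT and at 7247, 7073 and 6327 CPM in Y67F-FXR livers. The groups did not overlap, and the FXR-WT values were almost the same. The means were 5275 ± 22.6 and 6882 ± 489 CPM (SD, n = 3), a log2 fold change of 0.38 (SE 0.123, 95% interval 0.10 to 0.67; edgeR quasi-likelihood adjusted p = 0.220). With DESeq2 the adjusted p was 0.0283, but the log2 fold change of 0.39 stayed under the minimum fold for a call.

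Cyp4a10 was at 2376, 3494 and 3540 CPM in FXR-WT and at 4140, 3234 and 4142 CPM in Y67F-FXR livers. The groups overlapped, and the lowest value of each group was in FXR-WT 1 and Y67F-FXR 2, the libraries in which short genes stood highest. The log2 fold change was 0.29 (SE 0.191, 95% interval -0.15 to 0.73; edgeR quasi-likelihood adjusted p = 0.597). The part of the length trend in these values was not tested beyond the fit with length offsets. In that fit the log2 fold change of Cyp4a10 was 0.30, beside 0.29 in the main fit, and neither fit made a call. The ratio of Cyp4a10 to Cyp4a14 ranged from 0.448 to 0.673 over the 6 livers, and its mean log2 differed by -0.08 between groups (two-sided exact permutation p = 0.7, n = 3 per group).

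Cyp4a31, the close paralog of Cyp4a10, was low, with 621 to 987 reads per library. It was at 30.4, 35.5 and 39.1 CPM in FXR-WT and at 48.0, 35.5 and 32.4 CPM in Y67F-FXR livers. The groups overlapped, and Y67F-FXR 1 alone stood above all FXR-WT livers. The log2 fold change was 0.14 (SE 0.178, 95% interval -0.27 to 0.55; edgeR quasi-likelihood adjusted p = 0.810).

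The male-enriched pair Cyp4a12a and Cyp4a12b had nearly the same mean in both groups. Cyp4a12a was at 179, 274 and 200 CPM in FXR-WT and at 265, 200 and 180 CPM in Y67F-FXR livers. Each group had 1 high liver, FXR-WT 2 and Y67F-FXR 1, above 2 lower ones. The log2 fold change was -0.02 (SE 0.206, 95% interval -0.50 to 0.45; edgeR quasi-likelihood adjusted p = 0.986). Cyp4a12b was at 92.3, 98.4 and 90.8 CPM in FXR-WT and at 110, 82.3 and 95.1 CPM in Y67F-FXR livers. The FXR-WT livers lay between the Y67F-FXR livers, with a log2 fold change of 0.03 (SE 0.136, 95% interval -0.28 to 0.34; edgeR quasi-likelihood adjusted p = 0.962). The ratio of Cyp4a12a to Cyp4a12b ranged from 1.89 to 2.79, with a difference in mean log2 of -0.04 (two-sided exact permutation p = 0.9, n = 3 per group). Both intervals leave room for changes in either direction, so equal expression was not shown.

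Cyp4v3 was at 278, 331 and 424 CPM in FXR-WT and at 467, 388 and 436 CPM in Y67F-FXR livers. FXR-WT 3 lay within the range of the Y67F-FXR livers, and the other FXR-WT livers lay below it. The log2 fold change was 0.32 (SE 0.173, 95% interval -0.08 to 0.72; edgeR quasi-likelihood adjusted p = 0.486). As for Cyp4a10, FXR-WT 1 and Y67F-FXR 2 were the lowest of their groups.

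**Figure D3:**
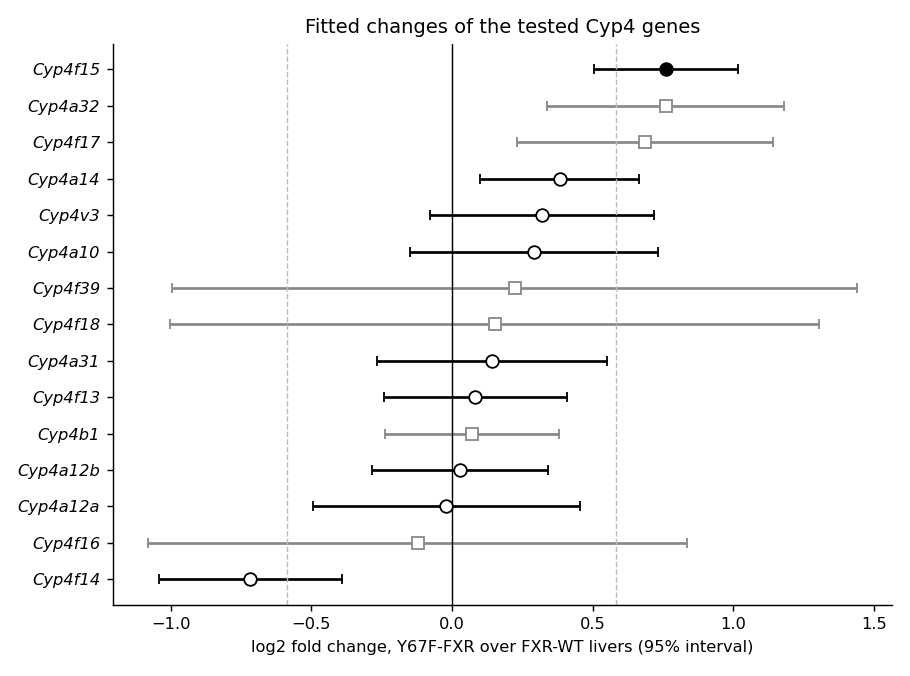
Log2 fold changes of the 9 members (black circles) and of 6 other tested Cyp4 genes (grey squares) in Y67F-FXR over FXR-WT livers (horizontal axis), with 95% intervals from the edgeR fit; the filled symbol is called and dashed lines mark a fold of 1.5. Cyp4f15 at 0.76 is the only called member, and the intervals of Cyp4f14 (-1.04 to -0.39) and Cyp4a14 (0.10 to 0.67) exclude 0 without a call.

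Of 12 further Cyp4 genes, 6 passed the filter on low counts, 2 had an unadjusted p under 0.05 in edgeR's test and none was called. Cyp4a32, which shares windows with Cyp4a10 and Cyp4a31, was at 40.6, 51.3 and 64.2 CPM in FXR-WT and at 97.6, 78.0 and 88.8 CPM in Y67F-FXR livers. Its groups did not overlap (log2 fold change 0.76, SE 0.183, edgeR quasi-likelihood adjusted p = 0.116). Cyp4f17, in the same chromosome 17 region, was at 4.16, 5.87 and 6.31 CPM in FXR-WT and at 9.43, 7.75 and 9.12 CPM in Y67F-FXR livers, again without overlap (log2 fold change 0.69, SE 0.197, edgeR quasi-likelihood adjusted p = 0.171). The log2 fold changes were 0.07 for Cyp4b1, -0.12 for Cyp4f16, 0.15 for Cyp4f18 and 0.22 for Cyp4f39. Cyp4f40, Cyp4x1, Cyp4a29-ps and Gm9705 (Cyp4f37) had no read in any library, while Cyp4a30b-ps had 1 read and Cyp4f41-ps 38 reads over all 6.

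The electron donors of microsomal P450 enzymes were examined because Cyp4 enzymes need them to act. Por, the NADPH-cytochrome P450 reductase that passes electrons to these enzymes, rose in Y67F-FXR livers. It was at 449, 608 and 468 CPM in FXR-WT and at 1015, 1326 and 1151 CPM in Y67F-FXR livers. The groups were well apart, with means of 508 ± 87.1 and 1164 ± 156 CPM (SD, n = 3). On the log2 scale the fold change was 1.20 (SE 0.168, edgeR quasi-likelihood adjusted p = 0.0244). Of the 5 donors 1 was called higher and 0 lower, against 0.546% and 0.426% of all genes. Among the donors 2 were fitted higher and 3 lower, and the median was -0.12 (-0.21 to -0.022 with 1 liver left out). Cytochrome b5 type B, Cyb5b, was fitted 0.47 lower on the log2 scale and Cyb5r1 0.26 lower, and neither was called (edgeR quasi-likelihood adjusted p = 0.234 and 0.682). With 1 liver left out at a time, Por was called in 2 of 6 fits.

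The genes listed for the steps after omega-hydroxylation include alcohol and aldehyde dehydrogenases, CoA ligases, transporters and peroxisomal enzymes. Of the 24, 1 was called, against 0.972% of all genes. Of 24 genes for the oxidation of omega-hydroxylated fatty acids, 20 were fitted higher and 4 lower, and their median was 0.35 on the log2 scale. FXR-WT 1 was the lowest of the 6 livers for 15 of the 24, and without it 18 were fitted higher and 6 lower, with a median of 0.23. The called gene was Acaa1b, a peroxisomal thiolase, which was at 1183, 1210 and 1233 CPM in FXR-WT and at 2225, 2433 and 2236 CPM in Y67F-FXR livers. Its groups were far apart, and the log2 fold change was 0.93 (SE 0.115, edgeR quasi-likelihood adjusted p = 0.0175). Acot3, a peroxisomal acyl-CoA thioesterase, had the larger log2 fold change of 2.08 but also a wide spread (31.0 ± 19.2 and 131 ± 19.2 CPM, adjusted p = 0.0909). Of the 4 alcohol dehydrogenases, which act on the omega-hydroxy products themselves, 3 were fitted lower and none was called. Adh4 (170 ± 10.3 and 112 ± 16.6 CPM, log2 fold change -0.61, adjusted p = 0.106) and Adh7 (-0.60, adjusted p = 0.162) were lower without overlap of the groups. The groups overlapped for Adh1 (-0.27) and Adh5 (0.042).

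PPARα targets outside the family were also mostly fitted higher: 37 of 39 tested, with a median log2 fold change of 0.45. Of the 39, 4 were called higher and 0 lower, against 0.546% and 0.426% of all genes. DESeq2 called 12 of them, and over the whole table it called 215 genes higher and 216 lower, against 68 and 53 with edgeR. The list was chosen with earlier results of these data known. FXR-WT 1 was the lowest liver for 33 of the 39, and without it 36 were fitted higher, with a median of 0.30. The called genes were Acaa1b, the acyl-CoA thioesterases Acot1 and Acot2, and Plin2, which coats lipid droplets. Acot1 was at 58.8 ± 7.28 CPM in FXR-WT and 155 ± 19.8 CPM in Y67F-FXR livers (2.64-fold, edgeR quasi-likelihood adjusted p = 0.0139). Acot2, a close relative whose reads may be shared with Acot1, was at 7.57 ± 1.56 and 18.0 ± 1.99 CPM (log2 fold change 1.25, adjusted p = 0.0307), and Plin2 was at 492 ± 19.5 and 890 ± 121 CPM (log2 fold change 0.85, adjusted p = 0.0353). The list shares genes with that for omega-oxidation, among them Ehhadh and Acaa1b. The 2 genes fitted lower were Fabp4 (-0.37) and Fgf21 (-1.64), the latter at 63.0, 14.6 and 14.6 CPM in FXR-WT and 8.70, 12.6 and 8.35 CPM in Y67F-FXR livers. Without FXR-WT 1, the high liver, the log2 fold change of Fgf21 was -0.56, and it was not called in any fit with a liver left out. With 1 liver left out at a time, Acot1 stayed called in 5 of 6 fits, Acaa1b in 2, Acot2 in 1 and Plin2 in 0.

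**Figure D4:**
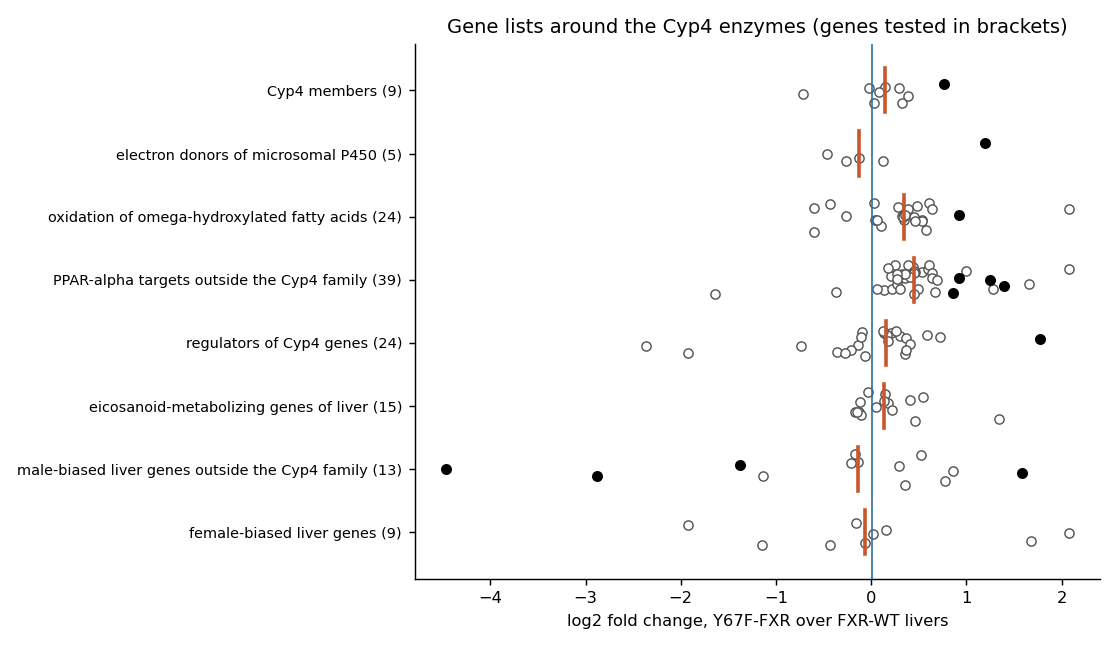
Log2 fold changes (Y67F-FXR against FXR-WT, 3 livers each) of the genes in each list, 1 circle per gene tested, filled where called; the short bar is the list median and the long line the median of all genes. PPARα targets have a median of 0.45 and omega-oxidation genes 0.35, beside 0.14 for the Cyp4 members and 0.01 for all genes tested.

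Among 25 regulators of Cyp4 genes, 24 were tested and 1 was called, against 0.972% of all genes. Their median was 0.15 on the log2 scale, and 0.050 without FXR-WT 1. Bcl6, a repressor of growth hormone-responsive and fatty acid oxidation genes in liver, rose from 7.64 ± 2.60 CPM in FXR-WT to 26.1 ± 5.37 CPM in Y67F-FXR livers (log2 fold change 1.77, SE 0.280, edgeR quasi-likelihood adjusted p = 0.0353). It was called in 1 of 6 fits with a liver left out. Nr0b2, the FXR target SHP, was at 81.9, 63.7 and 59.5 CPM in FXR-WT and at 6.42, 25.9 and 7.59 CPM in Y67F-FXR livers, all of them lower. Its spread was wide in the Y67F-FXR group (log2 fold change -2.37, SE 0.498, edgeR quasi-likelihood adjusted p = 0.0862). Without Y67F-FXR 2, the highest of that group, it was called lower (log2 fold change -3.30, adjusted p = 0.00265), and with any other liver left out it was not. For Nr2f2, an orphan nuclear receptor, the difference was 0.41 on the log2 scale (edgeR quasi-likelihood adjusted p = 0.212). Ppara itself, singled out after its values were seen, was at 153, 229 and 250 CPM in FXR-WT and at 360, 270 and 316 CPM in Y67F-FXR livers, without overlap (log2 fold change 0.58, adjusted p = 0.255).

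Of 13 male-biased liver genes other than Cyp4a12a and Cyp4a12b, 1 was called higher and 3 lower, against 0.546% and 0.426% of all genes. The list was chosen with earlier results of these data known, so these counts are a description only. The other 9 did not pass the test, and the median was -0.14 on the log2 scale (0.11 without FXR-WT 2). Selenbp2, a selenium-binding protein, fell from 216 ± 36.5 to 29.4 ± 2.77 CPM (log2 fold change -2.88, edgeR quasi-likelihood adjusted p = 0.00141). Hsd3b5, a steroid-metabolizing enzyme, fell from 109 ± 25.9 to 4.92 ± 2.07 CPM (-4.47, adjusted p = 0.00314), and Nudt7, a peroxisomal CoA hydrolase, from 565 ± 48.7 to 217 ± 33.3 CPM (-1.38, adjusted p = 0.0139). The fatty acid elongase Elovl3 rose from 34.6 ± 11.8 to 103 ± 3.96 CPM (1.58, adjusted p = 0.0336), in a row that shares exon bases with Pitx3. The calls of Selenbp2 and Hsd3b5 were made in 6 of 6 fits with a liver left out, that of Nudt7 in 5 and that of Elovl3 in 1.

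Of 15 female-biased genes, 9 were tested, 2 had an unadjusted p under 0.05 and none was called (1 with DESeq2), and the median of -0.06 on the log2 scale turned to 0.16 without FXR-WT 1, 0.19 without FXR-WT 2 and 0.025 without Y67F-FXR 1. Those with the smallest p-values were Acot3, described above, Cux2 (-1.92, edgeR quasi-likelihood adjusted p = 0.215) and Cyp2b9 (1.67, adjusted p = 0.519), the latter both at under 3 CPM on average. Of 18 genes for eicosanoid metabolism, 15 were tested, 3 had an unadjusted p under 0.05 and none was called by edgeR or DESeq2. Their median was 0.13, and 0.026 without Y67F-FXR 3. Ltc4s, which makes leukotriene C4, was at 0.407 ± 0.109 CPM in FXR-WT and 1.04 ± 0.183 CPM in Y67F-FXR livers (log2 fold change 1.35, adjusted p = 0.132). The epoxide hydrolases Ephx1 and Ephx2 had log2 fold changes of 0.46 and 0.40 (adjusted p = 0.159 and 0.169).

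Genes with the pattern over the 6 livers most like that of a member were found among 7173 genes by the root mean square difference of centred log2 CPM. For Cyp4f14 they were Inhbc (0.0551), Prhoxnb (0.0715) and Fkbp4 (0.0969), with log2 fold changes of -0.64, -0.76 and -0.73. For Cyp4a14 they were Lyrm5 (0.0262), Srrm2 (0.0418) and Gins4 (0.0460), and for Cyp4a12a they were Bmp2 (0.0979), Kcnk5 (0.108) and Fam35a (0.108). With 6 livers these likenesses are a description only.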

How the data were processed

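RNA from 6 livers, 3 per group, was sequenced in pairs of 100-bp reads. The libraries are numbered within a group and come from separate mice per the labels and methods. No pairing is stated, so the groups were compared without pairs. The p-values set the difference between groups against the spread within groups of these 6 samples. The authors trimmed reads with Trimmomatic 0.36 and aligned them with STAR (2.5.3a per the labels, a different version in the methods) to mm9. The deposited values are raw counts per gene from featureCounts 1.4.6-p4 per the file headers, without strand, with the 2 reads of a pair counted singly and with reads on several places or genes left out. A deposited table with the authors' own fold changes and p-values was not used.

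Counts were tested in R 4.3.3 with edgeR 4.0.16 (filterByExpr, TMM, glmQLFit and glmQLFTest, two-sided, Benjamini-Hochberg), with FXR-WT against Y67F-FXR as the only term. A call needed an adjusted p under 0.05 and a fold over 1.5. CPM are scaled by the TMM factors, and TPM were computed from the counted exon lengths. Alternatives were other size factors, filters and tests (DESeq2 1.42.0, limma-voom 3.58.1), length offsets (loess span 0.3), summed paralogs and leaving out each liver. Scripts were tested on simulated data.

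Each library held 19551113 to 22053320 counted reads, and the median chi-square between libraries was above 2 in each of the 6 pairs within a group, so no library was a copy of another of its group. Same-numbered livers of the 2 groups correlated at -0.52, -0.08 and 0.12 in their deviations, so the numbers were not used as pairs. The members and lists were chosen with earlier results of these data known. The genes named were the members, the other Cyp4 genes, Nr1h4, the called genes and the 3 smallest p-values of each list other than the cell markers, and the 3 nearest patterns of Cyp4a14, Cyp4a12a and Cyp4f14; Ppara, Fgf21, Fabp4, Ehhadh, Adh1, Adh5, Adh7 and single cell markers were named after their values were seen. Cyb5a is listed as Cyb5, and Ly6g was not analysed here.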

Additional observations from a re-analysis of the deposited data

How the results depend on the processing

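Each Cyp4 member kept its direction under the 12 or 13 other settings that gave it a value, except Cyp4a12b, at -0.034 with library totals. Without a fold minimum and with glmTreat the fold changes are those of the main fit, so these settings could not turn a direction. The count of members called higher fell from 1 to 0 with glmTreat (1 and 7 genes called higher and lower over the whole table) and with the replicate block (2 and 6 genes, Cyp4f15 adjusted p = 0.188), although the numbers do not pair the livers. The count of members called lower rose from 0 to 1, Cyp4f14, with library totals, DESeq2 (215 and 216 genes higher and lower), the likelihood ratio test (221 and 226) and gene length offsets (123 and 124). Among all genes tested 68 were called higher and 53 lower, and 81 lower without a filter. With library totals 52 were higher and 68 lower. With DESeq2 the lists had 3 called genes for omega-oxidation, 12 for PPARα targets, 2 for regulators, 6 for male-biased and 1 for female-biased genes.

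With 1 liver left out, members called higher and lower were 0 to 0, all genes called higher 2 to 35 and lower 7 to 33. Called list genes were 0 to 1 for electron donors, 0 to 2 for omega-oxidation, 0 to 6 for PPARα targets, 0 to 1 for regulators, 2 to 4 for male-biased, 0 to 1 for female-biased and 0 to 0 for eicosanoid genes. Log2 fold changes turned for Cyp4a31 (-0.044 to 0.26), Cyp4a12a (-0.20 to 0.18), Cyp4a12b (-0.081 to 0.12) and Cyp4f13 (-0.019 to 0.19), and ranged from 0.12 to 0.39 for Cyp4a10, 0.35 to 0.45 for Cyp4a14, -0.83 to -0.61 for Cyp4f14 and 0.18 to 0.50 for Cyp4v3. Summed rows gave 0.30 for Cyp4a10, Cyp4a31 and Cyp4a32 together. The cause of these changes was not tested. Detection of small changes with 3 livers per group was not measured.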
